A study of Rattus norvegicus with 16 samples.

Results

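Neurons answer strong synaptic activity with a wave of transcription. Calcium that enters through NMDA receptors and voltage-gated channels activates kinases, which act on CREB, its CRTC coactivators, SRF and MEF2, and these switch on early transcription factors and effector genes. Many effectors act at the synapse, as scaffolds, secreted ligands, kinases and regulators of receptor signalling. The genes described here are 9 activity-dependent plasticity genes, chosen by name with earlier results of these data known. They are Npas4, a transcription factor, and effectors of these kinds: Arc, Homer1, Nptx2, Bdnf, Inhba, Plk2, Rgs2 and Sik1. All 9 were among the 15037 genes measured, each with 1 probe set (called a probe below).

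Male Wistar rats of 8 to 10 weeks were given 1 of 4 treatments for 60 min. The sevoflurane rats inhaled 2.4% of this volatile anesthetic, and their control was O2. The propofol rats received an intravenous bolus of 10 mg/kg and then 36 mg/kg per hour, and their control was Intralipos, a 10% lipid emulsion given at the same stated bolus and rate. Rats of all 4 treatments breathed 40% oxygen at 6 L/min. Laser microdissection of Nissl-stained cryosections gave 4 regions a treatment. LHb and MHb are the lateral and medial parts of the habenula, MVe is the medial vestibular nucleus, and Sol is the nucleus of the solitary tract. Each combination of region and treatment had 1 array, 16 in all. The labels do not say how many rats an array represents or which regions share a rat.

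Levels are log2 signals, so a difference of 1 is a 2-fold ratio. Levels of different genes come from different probes and are not compared. With 1 array a region and treatment, the 4 regions took the place of replicates in treatment contrasts, and the 4 treatments in region contrasts. Adjusted p-values are from limma over all 15037 genes with a threshold of 0.05. They may be too small if regions share a rat. The tissue is bulk, so fewer cells of a type and less RNA per cell cannot be told apart.

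Region markers were checked first. Pvalb, a calcium-binding protein of fast-spiking neurons, averaged 17.01 ± 0.29 in MVe (SD over 4 treatments) and at most 9.46 ± 0.17 in another region. Dbh, the noradrenaline-synthesising enzyme, averaged 11.03 ± 0.75 in Sol and at most 3.58 ± 0.17 elsewhere. Chrnb4, a nicotinic receptor subunit, averaged 14.44 ± 0.20 in MHb against 9.52 ± 0.65 in LHb. Of the 3 LHb markers measured, Htr2c was highest in LHb at 16.51 ± 0.21, but Gpr151 was higher in MHb (16.30 ± 0.22) than in LHb (14.04 ± 0.59) and Gap43 was higher in Sol (15.77 ± 0.05) than in LHb (14.86 ± 0.29). The mean over all probes was 7.20 to 7.21 in the sevoflurane and O2 arrays and 6.97 to 6.99 in the propofol and Intralipos arrays, so each anesthetic is set only against its own control. No background level was used here. Th, a catecholamine enzyme that marks Sol, averaged 4.12 ± 0.26 to 4.88 ± 0.15 in the other regions and Dbh 3.46 ± 0.24 to 3.58 ± 0.17, so levels below about 5 are not shown to be above background. The MVe O2 array had a narrower spread of genes than the rest, with an interquartile range of 5.14 against 5.30 to 5.55 in the other 15 arrays.

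Promoter windows from RefSeq (GRCr8, 250 bases before to 50 after the start site) were found for 8 of the 9 genes, 13 windows in all. They are shown for the gene that sevoflurane and propofol arrays both held above their controls in every region (Npas4), for a kinase of the CREB pathway (Sik1), for the window with a full CREB site (Plk2) and for 1 of the 6 windows of Bdnf. Capitals mark the CRE core TGACG on either strand, which in Plk2 overlaps itself in the full CRE palindrome TGACGTCA.
Npas4, chr1:211716053-211716352, minus strand: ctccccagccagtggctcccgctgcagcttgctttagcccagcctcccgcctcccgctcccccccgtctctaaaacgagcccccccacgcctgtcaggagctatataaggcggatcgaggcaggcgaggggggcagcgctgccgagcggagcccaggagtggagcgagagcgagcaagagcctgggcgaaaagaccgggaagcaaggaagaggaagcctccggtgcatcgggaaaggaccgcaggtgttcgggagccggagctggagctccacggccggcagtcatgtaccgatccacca
Sik1, chr20:9958597-9958896, minus strand: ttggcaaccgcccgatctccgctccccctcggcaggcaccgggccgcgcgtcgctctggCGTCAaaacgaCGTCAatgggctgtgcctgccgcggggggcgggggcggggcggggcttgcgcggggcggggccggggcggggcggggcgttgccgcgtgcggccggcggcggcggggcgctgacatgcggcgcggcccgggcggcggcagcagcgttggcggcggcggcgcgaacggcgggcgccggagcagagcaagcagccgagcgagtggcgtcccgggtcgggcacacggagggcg
Plk2, chr2:43702286-43702585, plus strand: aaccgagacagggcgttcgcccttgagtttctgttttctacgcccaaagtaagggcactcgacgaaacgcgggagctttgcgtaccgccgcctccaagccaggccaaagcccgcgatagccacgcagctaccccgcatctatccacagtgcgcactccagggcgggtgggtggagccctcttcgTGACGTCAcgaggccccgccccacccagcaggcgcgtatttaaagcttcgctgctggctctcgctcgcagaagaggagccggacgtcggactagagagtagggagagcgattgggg
Bdnf, chr3:116637608-116637907, plus strand: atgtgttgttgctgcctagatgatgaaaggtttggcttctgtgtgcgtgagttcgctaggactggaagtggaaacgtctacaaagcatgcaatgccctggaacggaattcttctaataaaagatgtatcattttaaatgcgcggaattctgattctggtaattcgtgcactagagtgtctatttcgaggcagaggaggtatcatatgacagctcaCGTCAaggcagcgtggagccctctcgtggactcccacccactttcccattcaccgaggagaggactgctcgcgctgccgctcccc

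The full CRE was present in 1.83% of the 33469 RefSeq promoter windows of the same length, and among the 8 genes in Plk2 alone, 66 bases before the start site. The core TGACG was present in 21.2% of all windows and in 5 of the 13 windows, 1 each of Plk2, Bdnf, Nptx2, Rgs2 and Sik1. Sik1 carried it at 191 and 180 bases before the start site. The Npas4 window held neither. The CArG box, the site named for SRF, was present in 1.64% of all windows and in 0 of the 13. A match describes letters only.

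Levels differed most between regions for 6 of the 9 genes. Nptx2, Inhba, Bdnf, Plk2, Rgs2 and Sik1 each had a range of region means larger than their largest difference between an anesthetic array and its control. Of the 27 steps between neighbours in the regions' orders, 12 passed the test, 2 in each of these 6 genes. Each order was taken from the same region means that were tested. No share of all genes was counted for the ranges or the steps, so neither sets these genes apart from others. The counts of genes called in each of the 6 region contrasts were 5 of 9 for LHb minus MHb (28.5% of all genes), 7 for LHb minus MVe (26.7%) and 5 for LHb minus Sol (25.3%). They were 6 for MHb minus MVe (40.9%), 7 for MHb minus Sol (38.7%) and 4 for MVe minus Sol (35.2%).

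**Figure D1:**
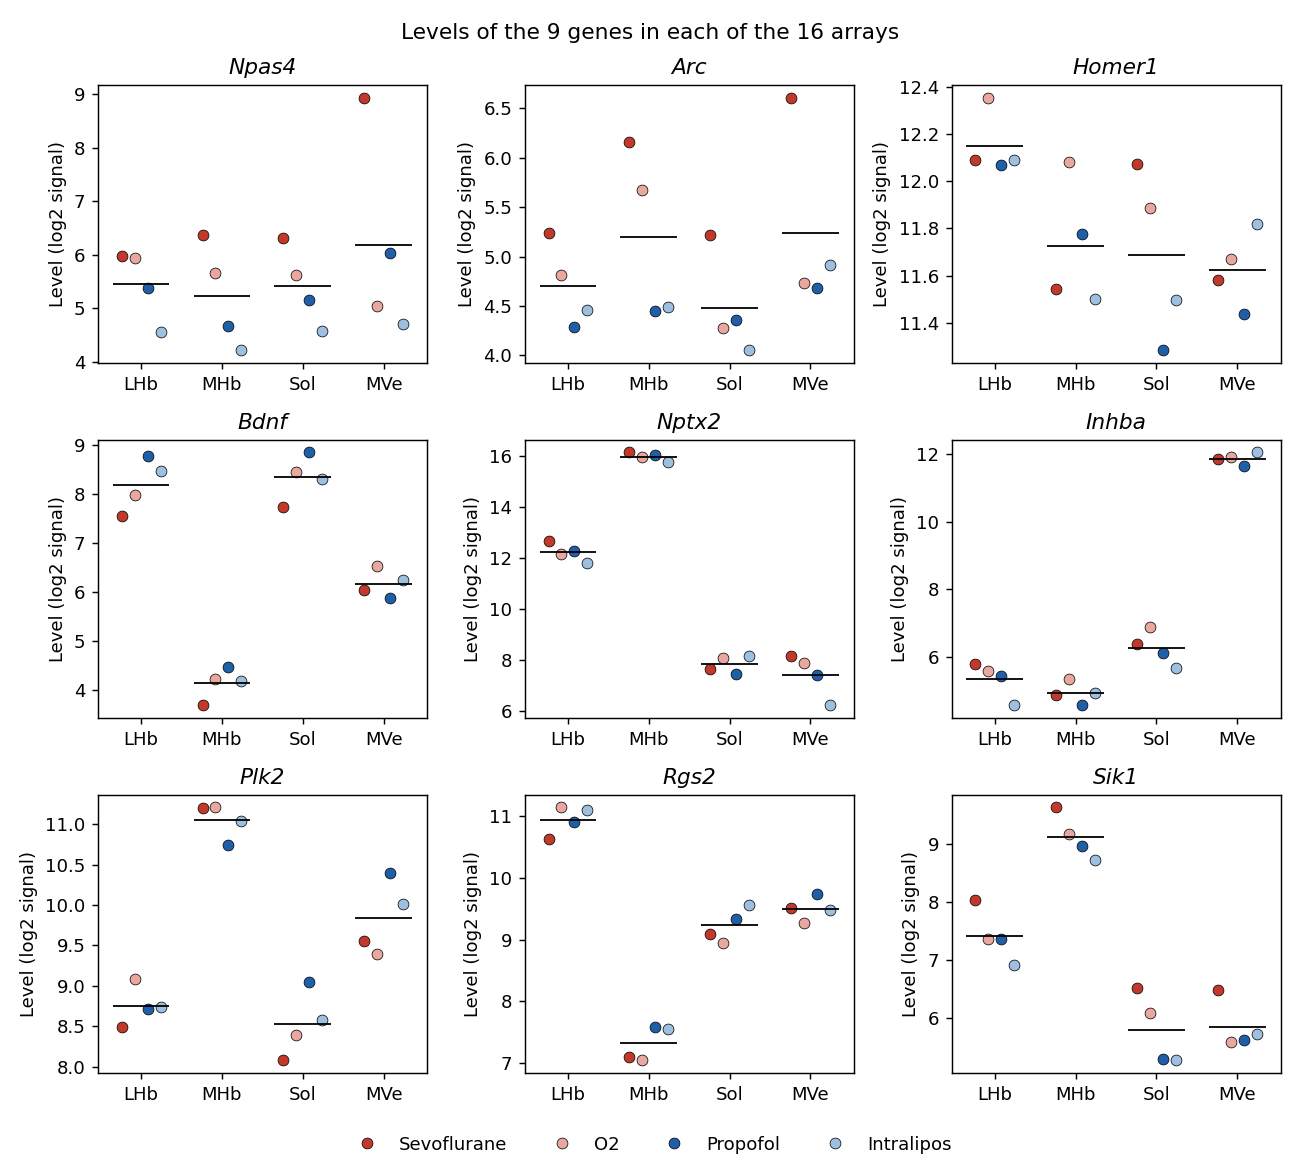
Level of each gene (log2 signal, vertical axis, own scale in each panel) in the 4 regions (horizontal axis), 1 point per array, coloured by treatment, with the region mean as a line. Nptx2 at 15.99 in MHb and Inhba at 11.87 in MVe stand apart from the other regions, while the 4 arrays of a region lie close together in most panels.

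Npas4 is a neuronal transcription factor that calcium influx induces directly and that shapes inhibitory synapses. With regions in the order LHb, MHb, Sol and MVe, its levels were 5.98, 6.38, 6.32 and 8.93 under sevoflurane, against 5.94, 5.67, 5.63 and 5.05 under O2. They were 5.38, 4.67, 5.15 and 6.03 under propofol, against 4.56, 4.22, 4.58 and 4.71 under Intralipos. The anesthetic array was the higher one in every region, for both drugs, and the MVe sevoflurane array stood far above the rest. All Intralipos levels of Npas4 and its MHb propofol level lay below about 5, so they are not shown to be above background. The lowest sevoflurane array lay just above the highest O2 array, a separation that 1 of the 9 genes and 0.466% of all genes showed. The propofol and Intralipos arrays overlapped, and none of the 9 genes had all its propofol arrays above all its Intralipos arrays (0.479% of all genes). No step between neighbouring regions passed the test. MVe minus Sol was 0.76 ± 0.40 (adjusted p = 0.157). It was 0.13 without the MVe sevoflurane array (adjusted p = 0.764) and 1.26 without the MVe O2 array (adjusted p = 0.01).

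Arc binds the endocytic machinery that removes AMPA receptors and its RNA travels to active dendrites. Its levels in the same order of regions were 5.24, 6.16, 5.22 and 6.61 under sevoflurane, against 4.81, 5.67, 4.28 and 4.73 under O2. Under propofol they were 4.29, 4.45, 4.36 and 4.68, against 4.46, 4.49, 4.05 and 4.92 under Intralipos. Sevoflurane was above O2 in each region, with overlap between the groups, and propofol was above Intralipos in Sol alone. Every propofol and Intralipos level, and every O2 level but that of MHb, lay below about 5 and is not shown to be above background. Over treatments Arc was higher in MVe than in Sol by 0.76 ± 0.22 (SE, adjusted p = 0.0129) and in MHb than in Sol by 0.72 ± 0.22 (adjusted p = 0.0159). The first call was lost without the MVe sevoflurane array (0.55, adjusted p = 0.0749), and the second without the MHb O2, Sol sevoflurane or Sol O2 array (adjusted p = 0.0992, 0.058 and 0.0579). The Sol mean of Arc (4.47) is not shown to be above background, so the size of both differences is uncertain.

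Homer1 is a postsynaptic scaffold that ties group I metabotropic glutamate receptors to their partners, and its short form is the activity-induced one. The single probe here was not resolved into short and long forms. Levels were 12.09, 11.54, 12.07 and 11.58 under sevoflurane, against 12.35, 12.08, 11.89 and 11.67 under O2. They were 12.07, 11.78, 11.28 and 11.44 under propofol, against 12.09, 11.50, 11.50 and 11.82 under Intralipos. The whole span was 1.07, and no step between neighbouring regions passed the test. LHb was above MVe by 0.52 ± 0.17 (adjusted p = 0.0255) and above Sol by 0.46 ± 0.17 (adjusted p = 0.0494), calls that leaving out a single array ended in 6 and 11 of 16 cases (adjusted p up to 0.0865 and 0.189).

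Nptx2 encodes a secreted pentraxin that clusters AMPA receptors. It was highest in MHb, with 16.15 under sevoflurane and 15.97 under O2, and with 16.04 under propofol and 15.78 under Intralipos. LHb followed with 12.66 and 12.16 under sevoflurane and O2, and with 12.28 and 11.81 under propofol and Intralipos. Sol held 7.66 and 8.08 in the first pair and 7.44 and 8.16 in the second, and MVe 8.17 and 7.90, then 7.43 and 6.23. MHb exceeded LHb by 3.76 ± 0.27 (adjusted p = 3.35e-09) and LHb exceeded Sol by 4.39 ± 0.27 (adjusted p = 7.19e-10), whereas Sol and MVe did not differ beyond their spread (0.40 ± 0.27, adjusted p = 0.279). MHb was 376-fold above MVe. Beside the LHb levels, the summed signal of 6 MHb markers in the LHb arrays was 56869 under sevoflurane and 41714 under O2, and 37572 under propofol and 23500 under Intralipos, compared with 523269 to 629633 in MHb. The part of MHb tissue in the Nptx2 level of LHb was not tested.

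Bdnf, the ligand of the TrkB receptor, was high in Sol and LHb. Taking LHb, MHb, Sol and then MVe, its levels were 7.56, 3.70, 7.75 and 6.05 under sevoflurane, against 7.99, 4.22, 8.46 and 6.54 under O2. They were 8.77, 4.47, 8.86 and 5.88 under propofol, against 8.49, 4.19, 8.32 and 6.26 under Intralipos. Each sevoflurane array was below its O2 array, while propofol was above Intralipos in all regions but MVe. Sol and LHb did not differ beyond their spread (0.14 ± 0.20, adjusted p = 0.675). LHb exceeded MVe by 2.02 ± 0.20 (adjusted p = 3.48e-07) and MVe exceeded MHb by 2.04 ± 0.20 (adjusted p = 1.14e-07). The MHb level is not shown to be above background, so the second difference can be read as a lower bound only.

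Inhba encodes the subunit of activin A, a secreted ligand of the TGF-beta family. In MVe it reached 11.85 under sevoflurane and 11.92 under O2, and 11.66 under propofol and 12.06 under Intralipos. The other 12 arrays lay between 4.56 and 6.87, without overlap. MVe exceeded Sol by 5.63 ± 0.21 (adjusted p = 8.25e-13) and Sol exceeded LHb by 0.91 ± 0.21 (adjusted p = 0.00362), and LHb and MHb did not differ beyond their spread (0.42 ± 0.21, adjusted p = 0.168). No fold over MHb is given, since the mean of Inhba there (4.92) is not shown to be above background. Neither is its LHb Intralipos level (4.58), so the size of the step from Sol to LHb is uncertain. Choroid plexus markers summed to 248294 to 565233 in MVe and 18766 to 87580 in the other regions, and their part in this level was not tested.

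Plk2 is a kinase that tags the spine protein SPAR for removal after prolonged activity. It was highest in MHb, at 11.20 under sevoflurane and 11.21 under O2, and at 10.75 under propofol and 11.04 under Intralipos. MVe held 9.55 and 9.40, then 10.40 and 10.02. LHb held 8.49 and 9.08, then 8.71 and 8.74, and Sol 8.08 and 8.39, then 9.05 and 8.57. MHb exceeded MVe by 1.21 ± 0.22 (adjusted p = 0.000153) and MVe exceeded LHb by 1.09 ± 0.22 (adjusted p = 0.000841), whereas LHb and Sol did not differ beyond their spread (0.23 ± 0.22, adjusted p = 0.504).

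Rgs2 speeds the shut-off of Gq signalling. LHb was highest, at 10.64 under sevoflurane and 11.14 under O2, and at 10.90 under propofol and 11.10 under Intralipos. MHb was lowest, at 7.10 and 7.04, then 7.59 and 7.54, with Sol between 8.94 and 9.56 and MVe between 9.26 and 9.74. LHb exceeded MVe by 1.45 ± 0.16 (adjusted p = 1.25e-06) and Sol exceeded MHb by 1.91 ± 0.16 (adjusted p = 1.17e-08). MVe and Sol did not differ beyond their spread (0.27 ± 0.16, adjusted p = 0.217).

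Sik1 is a kinase that phosphorylates CRTC coactivators and so restrains CREB. From LHb through MHb and Sol to MVe, its levels were 8.04, 9.63, 6.53 and 6.48 under sevoflurane, against 7.37, 9.17, 6.09 and 5.59 under O2. They were 7.36, 8.97, 5.29 and 5.63 under propofol, against 6.91, 8.73, 5.28 and 5.73 under Intralipos. Sevoflurane was the higher array in all 4 regions. MHb exceeded LHb by 1.71 ± 0.16 (adjusted p = 1.43e-07) and LHb exceeded MVe by 1.57 ± 0.16 (adjusted p = 6.77e-07), and MVe and Sol did not differ beyond their spread (0.06 ± 0.16, adjusted p = 0.824).

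The first treatment comparison asked which effectors differed between sevoflurane and O2 over the regions. None of the 9 passed the test, nor did any of the 15037 genes (0%). At an unadjusted p under 0.05 limma counted 751 genes, 4 of them among the 9. Npas4 was 1.33 ± 0.40 higher (SE, adjusted p = 0.852), Arc 0.93 ± 0.22 higher (adjusted p = 0.655) and Sik1 0.62 ± 0.16 higher (adjusted p = 0.684). Bdnf had a fitted difference of -0.54 ± 0.20 (adjusted p = 0.975). Npas4, Arc and Sik1, 3 of the 9, were higher in 4 of 4 regions, against 7.18% of all genes, and Bdnf was lower in 4 of 4, against 6.47%. The MHb levels of Bdnf (3.70 and 4.22) and the O2 levels of Arc outside MHb are not shown to be above background. The spread over regions was wide for Npas4 (SD 1.73, n = 4) and Arc (SD 0.67) and narrow for Sik1 (SD 0.21) and Bdnf (SD 0.12). The other 5 genes had fitted differences between -0.20 and 0.13. Beside these values, 1 of 12 oligodendrocyte markers was above 0 in the LHb pair (median -0.38) and 1 of 12 in the MHb pair (median -0.57), and 0 of 10 choroid plexus markers in the Sol pair (median -0.87). The part of these cell types in the differences was not tested.

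**Figure D2:**
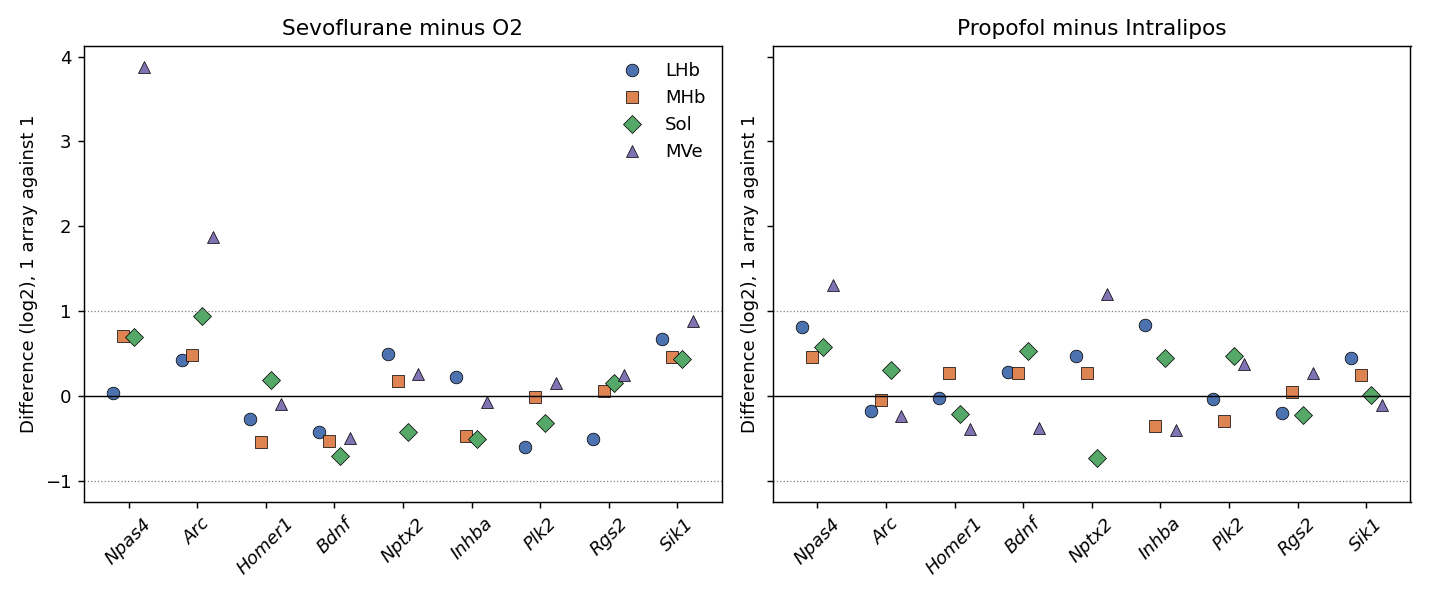
Difference in level (log2) between each anesthetic array and its control array, 1 point per region, for sevoflurane minus O2 and for propofol minus Intralipos. Of the 72 differences 4 reach 1 in size, all of them in MVe, among them Npas4 at 3.88 under sevoflurane.

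All 4 differences of at least 1 lay in MVe. The MVe sevoflurane pair held more such genes in general, with 296 genes at least 1 higher, compared with 81 in LHb, 124 in MHb and 106 in Sol, and 246 at least 1 lower, compared with 74, 99 and 101. For propofol 127 genes were at least 1 higher in MVe, compared with 130, 165 and 234. Under sevoflurane Npas4 was 3.88 above O2, the difference ranked 5 from the highest among 15037 genes, and Arc was 1.88 above (rank 18). These 2 of 9 genes exceeded a 2-fold ratio, against 1.97% of all genes, and these single pairs have no replicate check. Above 0 in these MVe arrays were also 11 of 13 neuron markers (median difference 0.20) and 18 of 19 other activity-induced effectors (median 0.46). So were 11 of 15 early transcription factors (median 1.51). Among all genes 8232 of 15037 were above 0 in this pair, with a median of 0.04. Without the MVe sevoflurane array the fitted Npas4 difference was 0.70 (adjusted p = 0.998) and the Arc difference 0.73 (adjusted p = 0.883). Without the MVe O2 array they were 0.83 and 0.72 (adjusted p = 0.999 for each).

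The second treatment comparison set propofol against Intralipos. None of the 9 genes passed the test, against 0.02% of all genes, and 0 of the 9 and 1040 of all genes had an unadjusted p under 0.05 by limma. Npas4 was 0.79 ± 0.40 higher (adjusted p = 0.744) and higher in 4 of 4 regions, as were 8.36% of all genes. Its Intralipos levels and its MHb propofol level (4.67) are not shown to be above background, which limits this count. None of the 9 was lower in 4 of 4 (6.68% of all genes). Nptx2 differed by 0.30 ± 0.27 (adjusted p = 0.881), with a difference of 1.21 in MVe and -0.73 in Sol. In MVe, Npas4 (1.31) and Nptx2 were past a 2-fold ratio, against 0.845% of all genes. Beside the MVe pair, 10 of 10 choroid plexus markers were above 0 (median 0.84). In the Sol pair 9 of 10 choroid plexus markers (median 1.08) and 5 of 6 MHb markers (median 0.33) were above 0. So were 4 of 4 Sol markers (median 0.87) and 5 of 5 MVe markers (median 0.56). Of the MHb markers, Tac1, Chrna3 and Slc5a7 averaged 11.60, 11.59 and 11.68 in Sol itself, and Slc17a7 averaged 4.59. Nptx2 was at -0.73 in the Sol pair, Sik1 at 0.01 and Plk2 at 0.47. Beside the LHb pair 5 of 6 MHb markers were above 0 (median 0.63), with Nptx2 at 0.47, Sik1 at 0.45 and Plk2 at -0.03. Astrocyte markers above 0 were 0 of 10 in the LHb pair (median -0.271) and 5 of 10 in MHb (median 0.0077). They were 2 of 10 in Sol (median -0.175) and 1 of 10 in MVe (median -0.2384). The part of any of these tissues or cell types in these differences was not tested.

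**Figure D3:**
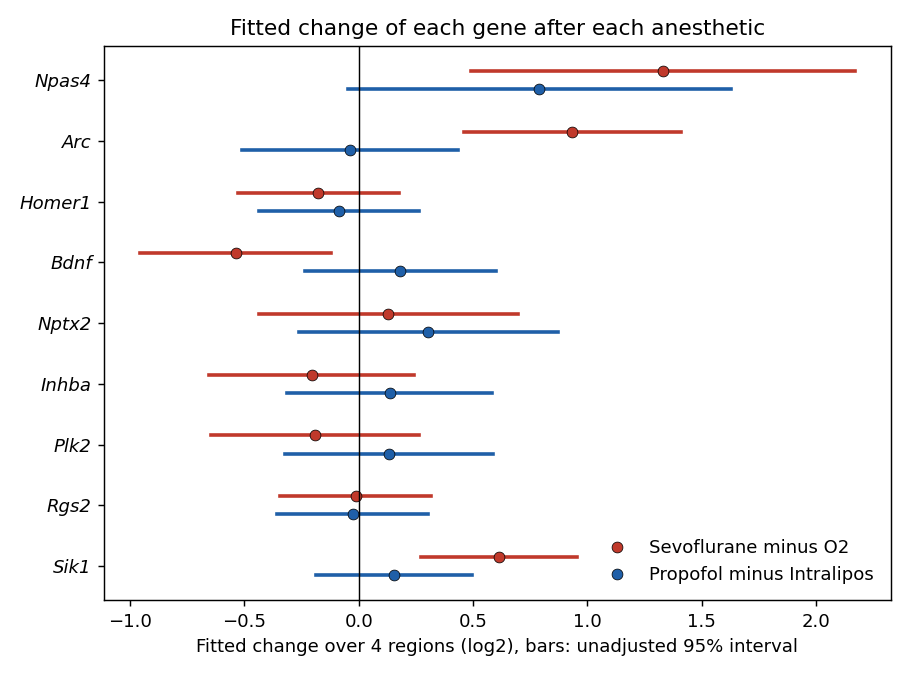
Fitted difference over the 4 regions (log2, horizontal axis) for each gene, sevoflurane minus O2 above propofol minus Intralipos, with unadjusted 95% intervals from limma as bars. Npas4 at 1.33 is the farthest from 0, and after adjustment over all genes none of the 9 passed the test.

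Both drugs were set against each other through their own controls. None of the 9 differed between the drugs by the test of the difference (0.0133% of all genes were called). Arc had the largest difference of effects, 0.97 ± 0.32 (sevoflurane effect minus propofol effect, adjusted p = 0.946), followed by Bdnf at -0.72 ± 0.28 (adjusted p = 0.946), Npas4 at 0.54 ± 0.56 (adjusted p = 0.994) and Sik1 at 0.46 ± 0.23 (adjusted p = 0.991). The effect in hindbrain (Sol and MVe) minus that in habenula (LHb and MHb) was called for 0% of all genes for sevoflurane and for 0% for propofol. For sevoflurane it was 1.91 ± 0.72 for Npas4 (adjusted p = 0.926) and 0.95 ± 0.40 for Arc (adjusted p = 0.927), and for propofol it was 0.59 ± 0.31 for Plk2 (adjusted p = 0.918). Leaving out 1 array moved the Npas4 value between 0.68 (without the MVe sevoflurane array) and 3.15 (without the Sol sevoflurane array), and the Arc value between 0.53 and 1.37 (without the same arrays). By limma 803 and 816 genes, 2 and 0 of them among the 9, had an unadjusted p under 0.05 in these contrasts.

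Other genes of the activity pathway were described by list. Of 15 measured early transcription factors 12 were above 0 under sevoflurane (median 0.76) and 0 passed the test. The farthest from 0 were Egr1 at 3.40 ± 0.64 (adjusted p = 0.28), Nr4a1 at 2.69 ± 0.64 (adjusted p = 0.655), Fos at 2.42 ± 0.58 (adjusted p = 0.655) and Junb at 1.86 ± 0.33 (adjusted p = 0.222). Under propofol 11 of 15 were above 0 (median 0.24), with Egr1 at 1.90 ± 0.64 (adjusted p = 0.64). Of 19 other activity-induced effectors 15 were above 0 under sevoflurane (median 0.10) and 13 under propofol (median 0.09), and none passed. In the single sevoflurane pairs 18 of these effectors were above 0 in MVe, compared with 13 in LHb, 6 in MHb and 8 in Sol. Of all 15037 genes 8232 were above 0 in the MVe pair, compared with 7632, 7417 and 7438. The farthest of these effectors were Per1, a clock gene, at 0.67 ± 0.20 under sevoflurane (adjusted p = 0.814) and Gadd45g, a stress-response gene, at -0.98 ± 0.31 under propofol (adjusted p = 0.64).

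Genes upstream of the effectors and at the receptors were described in the same way. Of 24 calcium and CREB signalling genes 15 were above 0 under sevoflurane (median 0.09) and 16 under propofol (median 0.08). In the single sevoflurane pairs 20 of them were above 0 in MVe, compared with 13 in LHb, 12 in MHb and 12 in Sol. The counts over all 15037 genes were 8232 in MVe, 7632 in LHb, 7417 in MHb and 7438 in Sol. Srf, the factor that binds CArG boxes, was at 0.77 ± 0.28 under sevoflurane (adjusted p = 0.975), and Grin2a, an NMDA receptor subunit, was at 0.51 ± 0.16 under sevoflurane (adjusted p = 0.852) and 0.48 ± 0.16 under propofol (adjusted p = 0.64), higher in 4 of 4 regions for each drug. Grin1, another subunit, was at 0.53 ± 0.16 under propofol (adjusted p = 0.637). Of 29 partners and receptors 15 and 17 were above 0 under sevoflurane and propofol (medians 0.01 and 0.02), with Grm5, a partner of Homer1, at 0.51 ± 0.17 under sevoflurane (adjusted p = 0.975). None of these genes passed. Among all genes 7934 and 7860 of 15037 were above 0, with a median of 0.01 in each comparison. The 9 effectors had 4 above 0 under sevoflurane (median -0.01) and 6 under propofol (median 0.14).

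**Figure D4:**
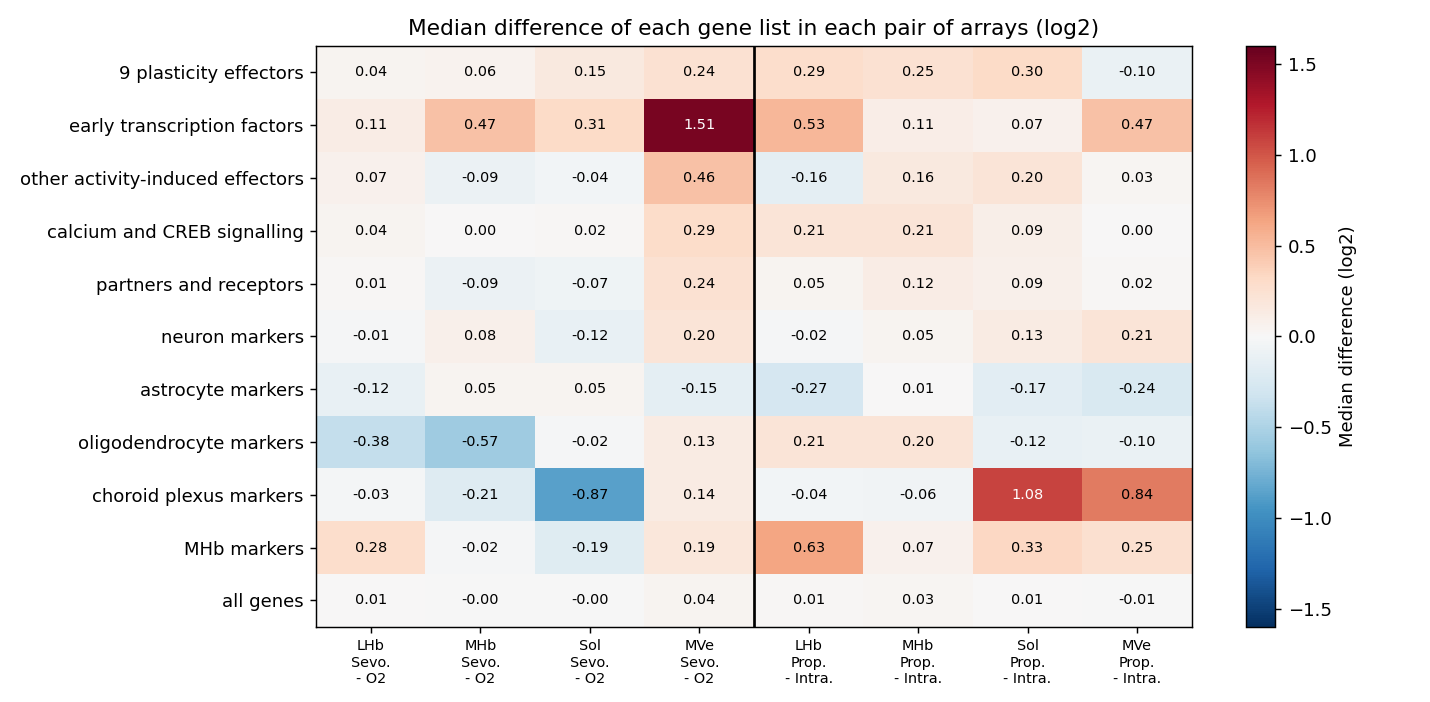
Median difference (log2) of each gene list between each anesthetic array and its control array, by region (columns) and list (rows), sevoflurane minus O2 on the left and propofol minus Intralipos on the right. The early transcription factors in the MVe sevoflurane pair (1.51) and the choroid plexus markers in the Sol sevoflurane pair (-0.87) and the Sol and MVe propofol pairs (1.08 and 0.84) lie farthest from 0.

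The differences of the 9 genes were set against each other in pairs. Across the 8 differences (4 regions, 2 anesthetics) the 36 pairs of genes had Pearson r from -0.68 (Inhba and Rgs2) to 0.73 (Arc and Sik1), and 18 pairs were above 0. Npas4 and Arc had r = 0.72, but a Spearman rho of 0.05. These are descriptions over 8 points that share arrays, regions and array sets. Among 5353 candidate genes, those at or above the median level with an SD of the 8 differences of at least 0.25, the likest to Npas4 were St6gal1 (r = 0.97), Zfp612 (0.94) and Snapc1 (0.93), and to Arc Zkscan3 (0.97), Irf9 (0.95) and Abcc8 (0.94). For Homer1 they were Mbp (0.95), Abhd17a and Bag1 (0.94 each), and for Nptx2 Jrkl (0.98), Mtrf1l (0.95) and Ankrd29 (0.94). For Bdnf they were Supt5h (0.93), Cntn6 and Sema4a (0.92 each), and for Inhba Ift70b (0.98), Arrb2 (0.96) and Smyd3 (0.94). For Plk2 they were Slc25a51 (0.97), Fam168a (0.95) and Atm (0.93), for Rgs2 Max (0.95), Nr1d2 (0.94) and Rsbn1l (0.92), and for Sik1 Rnf114, Mmadhc (0.96 each) and Pmm2 (0.93). Each is among the highest of 5353 values over 8 points, so a high r comes in part from the search. By Spearman rho the likest to Npas4 were Naa30, Zfp612 and Elf1, and to Bdnf Csgalnact2, Lamp5 and Med17. Plk2 kept Slc25a51 and Atm.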

How the data were processed

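Deposited were log2 signals for every probe. The submitters' processing notes name Affymetrix Expression Console 1.3.0 for the authors' processing. The log2 scale was read off the values. Neither genome build nor summarization method is stated (not given in the sources used here). Per the labels' protocols, 100 ng of total RNA was labelled for each array. Of 24834 probes, 94 were controls and 9691 had no symbol here. The brightest probe of each gene was kept, which left 15037 genes. No filter or further normalization was applied.

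The main linear model held treatment plus region and used the 16 arrays together. It left 9 residual degrees of freedom. Fitting was by limma 3.58.1 under R 4.3.3, with eBayes after lmFit, two-sided tests, Benjamini-Hochberg adjustment over 15037 genes and a threshold of 0.05. A second model had treatment within brain part (6 residual degrees of freedom) for hindbrain against habenula. The fits were tested on simulated data. The number of arrays limits the precision. Named were all 9 genes, up to 4 genes a list with the largest fitted change, and the 3 likest genes. The genes and lists were chosen with earlier results of these data known. Figures were drawn with matplotlib 3.10.9 in Python 3.11.15.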

Additional observations from a re-analysis of the deposited data

Results flagged for a closer look

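In 5 of 90 groups of 4 arrays, 1 array stood apart from the others by its gap to the nearest array relative to the group's range. Chance alone gives about 1 in 20 only where the 4 values share 1 mean. Groups of 4 regions do not meet this where region means differ, so the count cannot be weighed against that rate. Npas4 under sevoflurane was 8.93 in MVe, apart from the other regions. Arc in MVe was 6.61 under sevoflurane, apart from the other treatments, as was Sik1 in MVe at 6.48 under sevoflurane. Homer1 in LHb was 12.35 under O2, and Inhba under Intralipos was 12.06 in MVe, apart from the other regions. Inhba lay between 11.66 and 12.06 in MVe over the 4 treatments, so its flag restates the region difference.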

How the results depend on the processing

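The fits were repeated without each array in turn, with trend and robust variance, with genes at or above the median level (7519 genes, 6 of the 9 included), with the mean of all probes of a gene, after quantile normalization, with region within array set as a block and with the 8 arrays of each comparison alone. The number of the 9 genes called stayed within 1.5 times in 226 of these counts. The exception was MVe minus Sol, with 2 called among genes at or above the median level, a filter that leaves out Arc and Bdnf. Among values of single genes and contrasts, 1693 kept their direction and their side of the threshold, 34 turned sign, 21 lost a call and 11 gained one. Some repeats could not move a fitted difference, so these tallies overstate stability. Each of the 9 genes has 1 probe, trend and robust variance change only the spread, and the arrays of 1 drug pair do not enter the other drug's difference. The 226 also include treatment contrasts, in which none of the 9 was called in any repeat. Quantile normalization turned Arc, MHb minus MVe, to 0.0357. Leaving out 1 array, values that turned sign ranged as follows. For sevoflurane minus O2, Nptx2 ran from -0.0679 to 0.337 and Rgs2 from -0.0916 to 0.141. For propofol minus Intralipos, Arc ran from -0.189 to 0.0886, Homer1 from -0.178 to 0.031, Inhba from -0.0729 to 0.348, Nptx2 from -0.0639 to 0.619, Plk2 from -0.032 to 0.349 and Rgs2 from -0.114 to 0.0576. The difference of effects of Npas4 ran from -0.0928 to 0.902. For regions, Arc MHb minus MVe ran from -0.265 to 0.169, Homer1 MHb minus Sol from -0.0697 to 0.201, Homer1 MVe minus Sol from -0.176 to 0.102, Npas4 LHb minus Sol from -0.166 to 0.408 and Sik1 MVe minus Sol from -0.0611 to 0.186. The cause was not tested. Over the arrays left out, the sevoflurane difference ran from 0.70 to 1.69 for Npas4, 0.72 to 1.16 for Arc, 0.49 to 0.74 for Sik1 and -0.68 to -0.42 for Bdnf, with adjusted p of at least 0.243. Every fit of an anesthetic against its control was paired by region, and with region within array set as a block 0 of the 9 genes were called for either drug. The labels give no replicate numbers for another pairing. Having 1 array a region and treatment limits every treatment comparison, where regions took the place of replicates. It also limits every region contrast, where treatments took that place.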
